A study of Mus musculus with 182 samples.

Results

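The cells described here are the 2 ends of a cell cycle score over 182 single germinal centre B cells, 90 cells in all. For each cell the mean log2(value + 1) of Mcm5, Uhrf1 and Rrm2, genes of DNA copying, was taken from the mean log2(value + 1) of Cenpe, Nusap1 and Ccnb1, genes of mitosis. The 90 cells were thus chosen by measured values of these 6 genes. The columns of the table fall into 2 sets whose values differ in scale gene by gene, so cells were ranked within each set. The mitotic end is the 24 highest of 96 cells in set 1 and the 21 highest of 86 cells in set 2. The DNA copying end is the 24 lowest and the 21 lowest cells of the same sets. The other 92 cells lie between the ends. Cells of the 2 ends are also called mitotic-end and copying-end cells. The names of the ends say which transcripts were measured at higher levels, and DNA content was not analysed here.

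All cells came from the spleens of C57BL/6 mice on day 13 after an intraperitoneal dose of 100 μg NP(23)-KLH, a hapten on a carrier protein, in 50% alum with 1 μg LPS. Cells bearing CD3, CD4, CD8, CD11c or IgD were depleted, and B220+ Fas-high GL7-high cells, which the labels also call NP+, were sorted and captured on the Fluidigm C1 system for 1 RNA sequencing library each. Both ends therefore share strain, immunisation, day and gate, and were told apart by the score alone. The labels name no animal, so all cells count as 1 biological sample. No test is given, the differences have no replicate check, and intervals on shares of cells are exact Clopper-Pearson 95% intervals that cover counting error over cells only.

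A dividing cell first copies its DNA in S phase, when licensed origins fire and the MCM helicase opens the strands for polymerases, clamps and ligase. It then separates the copies in mitosis, when kinetochores bind spindle microtubules and the anaphase promoting complex tags cyclins for destruction. Germinal centre B cells run through this cycle very fast, mostly in the dark zone, where they also mutate their antibody genes. The 2 gene programs are known to carry different promoter letters, with E2F motifs before many S phase genes, and CCAAT boxes together with the cell cycle homology region before many mitosis genes.

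Promoters of 10 of the genes with the largest differences are shown to let the letters of both programs be read side by side. They were picked because they hold the motifs, except Plk1 and Tcf19. Of the 12 promoters matched for 11 of the 12 largest genes at the mitotic end, 7 held the homology region and 1 the E2F motif within 250 bases before to 50 after the start. Of the 12 promoters matched for 9 of the 12 largest at the DNA copying end, 2 held the homology region and 4 the E2F motif. Over all 32851 RefSeq promoters, 19.2% held the homology region and 2.26% the E2F motif in the same window. The mitotic-end genes C330027C09Rik, 2810474O19Rik, Tmem59 and Fis1 and the copying-end genes Lig1, Sf3a3 and Exosc5 held neither in the shorter window shown here, in which Hist1h2an of the mitotic end held an E2F motif and Id3 and Wdr76 of the copying end a homology region. Each runs from 130 bases before to 30 bases after the RefSeq start (GRCm38.p6, which is mm10), 5′ to 3′ along the gene. Capitals mark 3 motifs, searched on both strands: the cell cycle homology region as TTTGAA or TTCGAA, the CCAAT box as CCAAT, and the E2F motif as TTTCCCGC, TTTCGCGC, TTTGCCGC or TTTGGCGC. Of the genes higher at the mitotic end, Ube2c (chr2:164769799-164769958, plus strand), Cdc25b (chr2:131186818-131186977, plus strand) and Ckap5 (chr2:91526632-91526791, plus strand) hold a homology region and a CCAAT box. So do Cenpf (chr1:189688057-189688216, minus strand) and Cdca8 (chr4:124936888-124937047, minus strand), in which the homology region and the last CCAAT box overlap. Plk1 (chr7:122159305-122159464, plus strand) holds a CCAAT box alone in this window.
Ube2c: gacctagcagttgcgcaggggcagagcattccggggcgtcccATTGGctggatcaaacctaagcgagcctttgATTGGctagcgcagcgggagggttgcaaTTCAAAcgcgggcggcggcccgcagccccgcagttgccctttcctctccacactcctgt
Cdc25b: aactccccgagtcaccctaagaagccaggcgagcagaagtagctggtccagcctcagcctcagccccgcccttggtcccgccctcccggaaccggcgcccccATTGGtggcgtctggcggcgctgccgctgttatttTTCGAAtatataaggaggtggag
Ckap5: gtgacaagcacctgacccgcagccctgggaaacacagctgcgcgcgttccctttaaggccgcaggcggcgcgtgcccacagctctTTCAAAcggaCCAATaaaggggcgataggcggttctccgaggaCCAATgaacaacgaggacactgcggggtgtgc
Cenpf: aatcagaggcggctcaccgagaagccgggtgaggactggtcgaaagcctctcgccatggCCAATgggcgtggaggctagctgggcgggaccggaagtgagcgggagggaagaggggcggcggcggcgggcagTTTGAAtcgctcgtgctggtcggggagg
Cdca8: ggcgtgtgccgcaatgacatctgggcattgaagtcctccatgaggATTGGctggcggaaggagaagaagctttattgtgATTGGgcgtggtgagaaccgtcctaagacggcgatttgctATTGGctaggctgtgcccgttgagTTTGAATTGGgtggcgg
Plk1: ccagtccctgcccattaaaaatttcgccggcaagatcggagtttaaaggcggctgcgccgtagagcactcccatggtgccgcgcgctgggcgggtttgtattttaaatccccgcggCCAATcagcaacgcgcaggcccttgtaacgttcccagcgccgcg

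Of the genes higher at the DNA copying end, Clspn (chr4:126556850-126557009, plus strand), Cdca7 (chr2:72476089-72476248, plus strand) and 2810417H13Rik, now named Pclaf (chr9:65890193-65890352, plus strand), hold an E2F motif. Tcf19 (chr17:35516795-35516954, minus strand) holds 2 CCAAT boxes and no E2F motif of these letters.
Clspn: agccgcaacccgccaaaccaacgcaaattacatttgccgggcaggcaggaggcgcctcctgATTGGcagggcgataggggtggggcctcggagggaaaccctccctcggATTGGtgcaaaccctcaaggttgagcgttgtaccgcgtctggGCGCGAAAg
Cdca7: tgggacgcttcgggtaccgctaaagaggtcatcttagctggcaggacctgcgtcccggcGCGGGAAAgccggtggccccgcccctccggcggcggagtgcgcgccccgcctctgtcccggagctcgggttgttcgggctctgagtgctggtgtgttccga
2810417H13Rik: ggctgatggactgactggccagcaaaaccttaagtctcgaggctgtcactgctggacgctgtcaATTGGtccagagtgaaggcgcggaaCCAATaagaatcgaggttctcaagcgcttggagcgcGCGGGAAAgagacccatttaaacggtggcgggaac
Tcf19: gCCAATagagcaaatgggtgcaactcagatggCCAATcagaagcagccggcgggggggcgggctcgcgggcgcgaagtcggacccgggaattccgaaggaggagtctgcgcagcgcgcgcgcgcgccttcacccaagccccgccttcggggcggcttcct

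The table gives a normalized signal without read counts, so the depth of each cell is unknown and its limit on detection cannot be given. Detection of a gene in a cell means a value of 1 or more. The median number of genes so detected was 1909 at the mitotic end and 1903.5 at the DNA copying end in set 1, and 1699 at the mitotic end against 1702 at the DNA copying end in set 2. The median number of genes above their own lowest value in the set was 2513 at the mitotic end against 2890 at the DNA copying end in set 1. In set 2 it was 2310 at the mitotic end against 2312 at the DNA copying end. Cells of a set have similar values at equal rank, which limits how far the count at 1 or more can vary. In set 1 that count ran from 1892 to 1945 at the mitotic end and from 1886 to 1936 at the DNA copying end. The count above the lowest value ran from 1948 to 4489 and from 2043 to 4492 there. The near equality of the ends at 1 or more therefore cannot compare their depth or quality. Among markers of other cell types, Cd3d and Cd4 of T cells and both NK cell genes in the table were detected in no cell of either end. Lck, also on the T cell list, was detected in 26 mitotic-end and 19 copying-end cells. Stromal genes were each found in at most 3 cells of the mitotic end and 0 of the DNA copying end. Erythroid genes were each found in at most 2 cells of the mitotic end and 1 of the DNA copying end. Myeloid genes were each found in at most 3 cells of the mitotic end and 4 cells of the DNA copying end. One cell stood apart, cell 122 of the mitotic end in set 2, with a summed value of 3443763, and the counts over all genes and over the pooled mitosis and copying lists are also given without it.

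**Figure D1:**
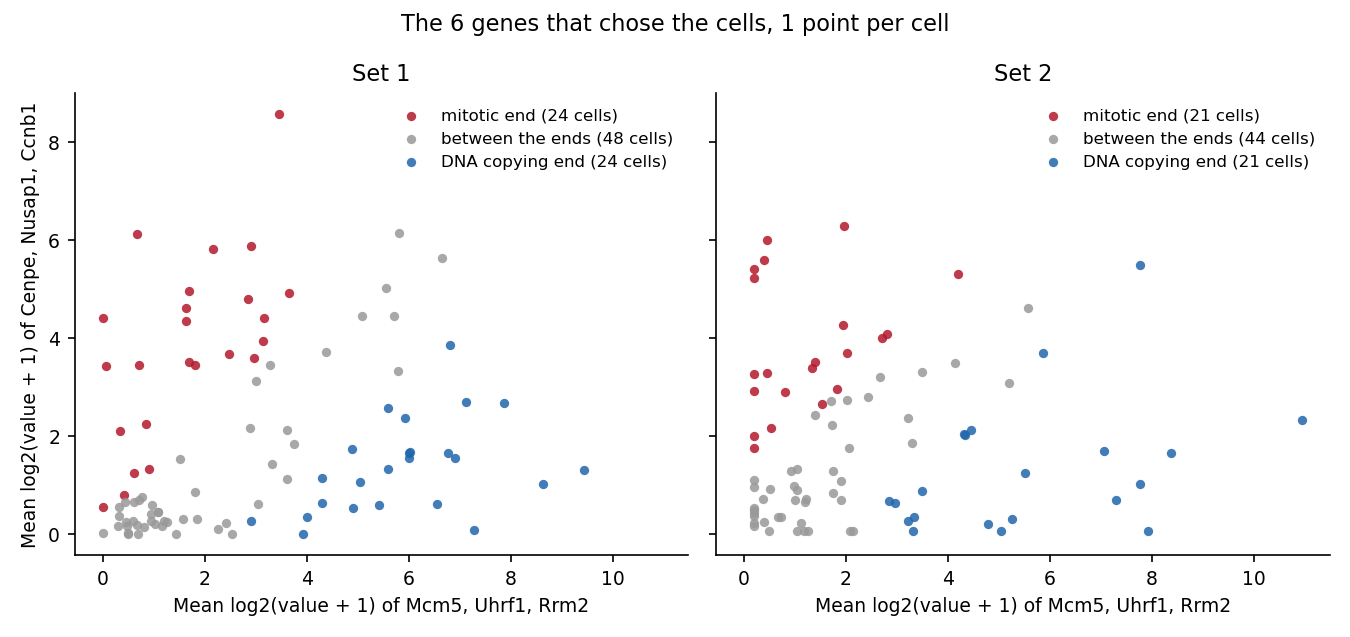
Each point is 1 cell, placed by the mean log2(value + 1) of Mcm5, Uhrf1 and Rrm2 across and of Cenpe, Nusap1 and Ccnb1 upwards, in set 1 (left) and set 2 (right). Cells of the mitotic end (24 and 21) tend to lie above and to the left of those of the DNA copying end (24 and 21). The ends overlap along each axis, since only the difference of the 2 means chose the cells. Many of the 92 cells between lie near the origin, low in both, as do some mitotic-end cells, and a few of the 92 are high in both.

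The 6 genes that chose the cells are given as a description only. The score had a median of 1.80 at the mitotic end and -4.33 at the DNA copying end in set 1, and of 2.10 at the mitotic end against -3.23 at the DNA copying end in set 2. The cells just inside the mitotic end scored 0.39 in set 1 and 1.12 in set 2, and the cells just outside scored 0.33 and 1.04. At the DNA copying end the cells just inside scored -2.63 and -2.16, against -2.53 and -2.09 just outside. The edges thus cut through a continuous range. The mitotic edge was low enough to take in some cells low in both kinds of gene. In set 1, cell 27 of the mitotic end had means of 0.55 for the mitosis genes and 0 for the copying genes. Cell 53 of the same end had 0.81 and 0.42.

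Of the 3 mitosis genes, Cenpe, a kinetochore motor, was detected in 43 of 45 cells of the mitotic end and 18 of 45 of the DNA copying end. Nusap1, which bundles spindle microtubules, was detected in 39 mitotic-end against 25 copying-end cells. Ccnb1, the cyclin B that starts mitosis with Cdk1, was detected in 14 mitotic-end against 4 copying-end cells and was the rarest of the 3. Of the 3 copying genes, Mcm5, a helicase subunit, was detected in 13 cells of the mitotic end and 36 of the DNA copying end. Uhrf1, which guides DNA methylation to new strands, was detected in 24 mitotic-end against 44 copying-end cells. Rrm2, the small subunit of ribonucleotide reductase, was detected in 16 mitotic-end against 38 copying-end cells. At the mitotic end 13 cells had all 3 mitosis genes, 25 had 2 and 7 had 1, and 32 of the 45 had at least 1 copying gene as well. At the DNA copying end 30 cells had all 3 copying genes, and 35 of the 45 had at least 1 mitosis gene. Transcripts of the other kind were thus found at both ends.

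Across all other genes the differences between the ends were centred on 0. A difference is the mean log2(value + 1) of the mitotic end minus that of the DNA copying end, taken within each set and averaged over both. It was computed for 5394 genes detected in at least 10% of the 182 cells, and a gene is called past the fold where it reached 1 or more in the same direction in both sets, which is 2-fold on the value + 1 scale. This understates the fold of genes with low values. The median over all genes was 0.0006, with 10th and 90th percentiles of -0.60 and 0.62. In all, 56 genes (1.04%) were past the fold and higher at the mitotic end, 55 (1.02%) were past it and higher at the DNA copying end, and 111 (2.06%) were past it in either direction. Without cell 122 the counts were 63 and 53, and with a linear term for the number of genes above their lowest value they were 58 and 56. With a pseudocount of 0.1 in place of 1 they were 161 and 164, and with 10 they were 6 and 6, where 99 of the 111 genes, Plk1, Cenpf, Cdca8 and Ckap5 among them, were no longer past the fold. Of the 56 genes, 15 belonged to a mitosis list, 2 to a copying list and 33 to none of the 36 lists used here. Of the 55 genes, 15 belonged to a copying list, 1 to a mitosis list and 32 to none. The rule used the same cells, so these counts describe the ends and support nothing further.

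**Figure D2:**
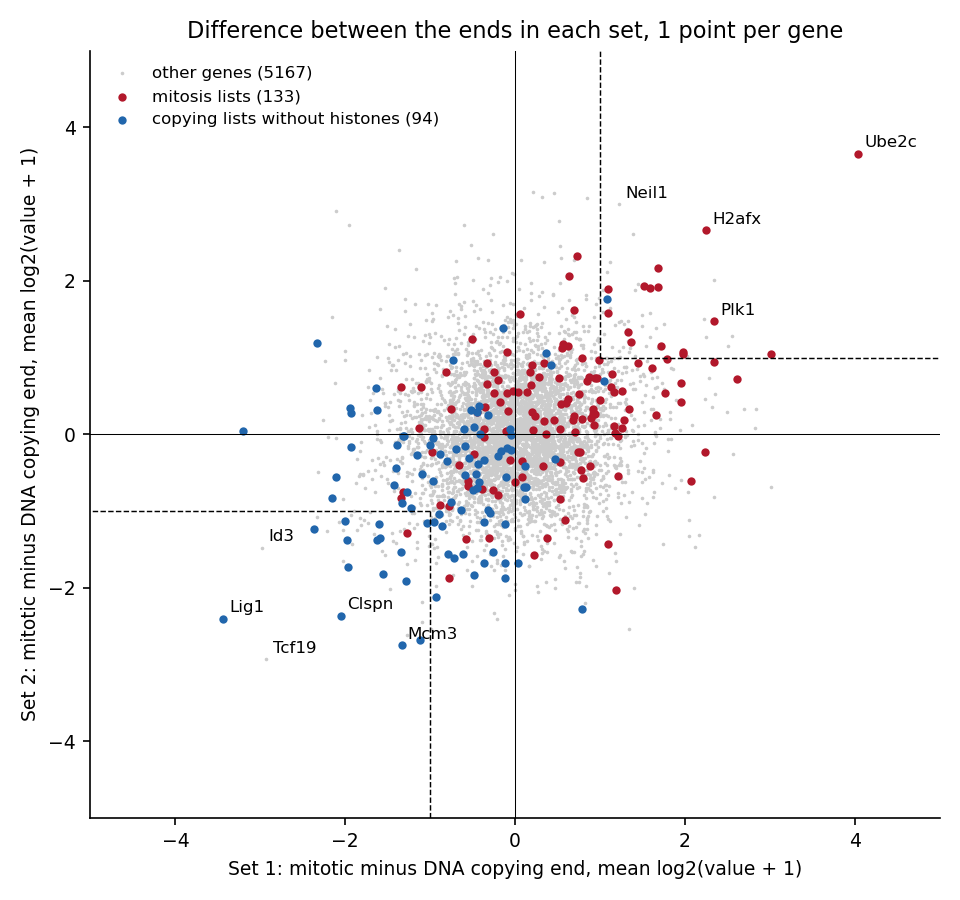
Each point is 1 of 5394 genes, placed by its difference in mean log2(value + 1), mitotic minus DNA copying end, in set 1 (across) and set 2 (upwards). The dashed lines mark a difference of 1 in both sets: 15 of 133 mitosis list genes (red) lie past them at upper right, led by Ube2c, and 15 of 94 copying list genes without histones (blue) lie past them at lower left, led by Lig1, while most other genes (grey) lie around 0.

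Genes of mitosis other than the 3 that chose the cells were mostly higher at the mitotic end. Of 133 list members tested, 15 (11.3%) were past the fold and higher there, against 1.04% of all genes, and 1 (0.752%) was past it in the other direction. The median difference was 0.47, and 75 members were above 0 in both sets while 19 were below 0 in both. Over all genes 26.2% were above 0 in both sets and 26.6% below. A cell of the mitotic end had a median of 63 of the 152 mitosis genes in the table (range 27 to 84), a cell of the DNA copying end had 49 (24 to 80), and a cell between the ends had 35 (14 to 94). The ranges overlapped widely, and the medians of both ends stood above that of the cells between. By set the medians were 68 at the mitotic end against 54.5 at the DNA copying end in set 1, and 54 at the mitotic end against 48 at the DNA copying end in set 2. Without cell 122, 19 mitosis list genes were past the fold at the mitotic end.

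Ube2c, the ubiquitin-conjugating enzyme that works with the anaphase promoting complex, had the largest difference of the genes tested. Its lowest, median and highest values were 0, 131 and 4767 in the mitotic end, against 0, 0.123 and 1327 in the DNA copying end. The 0.123 is the lowest value of Ube2c in set 2. Ube2c was detected in 31 of 45 cells (68.9%, 53.4 to 81.8) of the mitotic end and in 12 of 45 (26.7%, 14.6 to 41.9) of the DNA copying end. The difference was 4.04 in set 1 and 3.66 in set 2, with an SD over cells of 4.09 and 4.49 in the mitotic end and 3.09 and 2.92 in the DNA copying end. The cells between averaged 1.76 on the log2 scale, close to the 1.65 of the DNA copying end and below the 5.50 of the mitotic end. The large SDs come with cells of the same end that stand either near 0 or far above it.

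The remaining genes of the complex did not share this size of difference. Over 15 tested members of the anaphase promoting complex list the median difference was 0.29. Ube2c was the only one past the fold at the mitotic end (6.67%, against 1.04% of all genes). Cdc20, the activator of the complex in metaphase, was detected in 16 mitotic-end against 9 copying-end cells with a difference of 0.96. Espl1, the separase that cuts cohesin, was detected in 16 mitotic-end against 7 copying-end cells with a difference of 1.16 that missed the fold in 1 of the sets. Fbxo5, an inhibitor of the complex in S and G2 phase, was past the fold at the other end, with 16 cells of the mitotic end, 25 of the DNA copying end and differences of -1.27 and -1.28 in the 2 sets. It was the only mitosis list gene that was past the fold and higher at the DNA copying end.

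Among mitotic kinases and cyclins, 3 of 14 members (21.4%) were past the fold, all higher at the mitotic end, against 1.04% of all genes. The median difference was 0.59. Plk1, the polo-like kinase of mitotic entry and spindle assembly, had a median of 0.326 (range 0 to 830.5) in the mitotic end and 0.0512 (0 to 114) in the DNA copying end. The 0.0512 is the lowest value of Plk1 in set 2. Detection was in 20 mitotic-end cells (44.4%, 29.6 to 60.0) against 9 copying-end cells (20.0%, 9.58 to 34.6), with differences of 2.34 and 1.48 in the 2 sets. Most cells of the mitotic end, 25 of 45, thus had it below a value of 1. Cdc25b, the phosphatase that activates Cdk1, was detected in 28 mitotic-end against 14 copying-end cells, with differences of 1.68 and 1.92. Cdk1 itself was detected in 28 mitotic-end against 17 copying-end cells, with differences of 1.98 and 1.07. Ccnb2, a cyclin B, had 0.63 in set 1 and 2.06 in set 2, and Aurka, the kinase of spindle poles, had 0.97 and 0.73, so both missed the fold in 1 set or both. Wee1, which holds Cdk1 inactive, was the lowest of the list at -0.50, with 2 mitotic-end against 7 copying-end cells. Within the mitotic end 16 cells had both Ube2c and Plk1, 15 had Ube2c alone, 4 had Plk1 alone and 10 had neither.

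All 4 members of the chromosomal passenger complex, which corrects wrong attachments at the centromere, were above 0 in both sets, with a median difference of 1.09. Cdca8, its borealin subunit, had a median of 13.3 (0 to 12846) in the mitotic end and 0.418 (0 to 2339) in the DNA copying end, with differences of 1.59 and 1.91. The gene was found in 28 mitotic-end cells (62.2%, 46.5 to 76.2) against 20 copying-end cells (44.4%, 29.6 to 60.0). The intervals of these 2 shares overlap, which does not show the shares to be equal. Incenp, the scaffold, was found in nearly the same number of cells, 31 mitotic-end against 30 copying-end cells, but at higher values in the mitotic end, with a median of 30.0 there against 4.84 in the DNA copying end and differences of 1.37 and 1.20. Birc5 (survivin) and Aurkb, the kinase of the complex, had average differences of 0.89 and 0.87 and were not past the fold.

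Of 24 kinetochore and centromere genes, 3 (12.5%) were past the fold at the mitotic end, against 1.04% of all genes, and the list median was 0.30. Cenpf, a large kinetochore protein of G2 and mitosis, had a median of 7.39 (0 to 590.1) in the mitotic end and 0.461 (0 to 665) in the DNA copying end. It was detected in 33 mitotic-end cells (73.3%, 58.1 to 85.4) against 15 copying-end cells (33.3%, 20.0 to 49.0), with differences of 1.69 and 2.17. Cenpa, the histone H3 variant of centromeres, was detected in 24 mitotic-end against 10 copying-end cells, with differences of 1.10 and 1.58. Subunits of the inner kinetochore were spread around 0, down to -0.50 for Cenpm (19 mitotic-end against 18 copying-end cells). In the spindle checkpoint, which delays anaphase until all chromosomes are attached, all 8 genes had an average difference above 0 and the median was 0.70. Only Mad2l1 was past the fold there (12.5% of the list), with 17 mitotic-end against 11 copying-end cells and differences of 1.09 and 1.89. Bub3 had a larger average difference of 1.67 but reached 0.72 in set 2.

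The spindle motors and microtubule proteins had the highest median of the larger mitosis lists, 0.81 over 27 genes, and 20 of them were above 0 in both sets. Past the fold were 4 (14.8%), all higher at the mitotic end, against 1.04% of all genes. Kif23, a motor of the central spindle, was detected in 30 mitotic-end against 17 copying-end cells, with differences of 3.02 and 1.04. Ckap5, a microtubule polymerase, was detected in 30 mitotic-end cells (66.7%, 51.0 to 80.0) against 15 copying-end cells (33.3%, 20.0 to 49.0), with medians of 2.63 in the mitotic end and 0.241 in the DNA copying end and differences of 1.52 and 1.94. Kif22, a motor on chromosome arms, was detected in 30 mitotic-end against 22 copying-end cells with 1.33 in both sets, and Hmmr, a spindle assembly factor, in 29 mitotic-end against 15 copying-end cells with 1.72 and 1.15. Tpx2, which nucleates microtubules near chromosomes, averaged 1.64 (32 mitotic-end against 16 copying-end cells) without passing in both sets. Stmn1, which takes microtubules apart, was lower at the mitotic end by the average, at -0.86 with 28 mitotic-end against 29 copying-end cells.

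The other mitosis lists had 0 or 1 gene past the fold. None of 16 condensin and cohesin genes was past the fold, with a median of -0.08 and a range from -0.97 for Pds5a, a cohesin regulator, to 0.84 for Smc4, a condensin subunit. None of 11 cytokinesis genes was past it, with a median of 0.49, 7 genes above 0 in both sets and 1 below, and the lowest value, -1.33, for Rhoa, the small GTPase of the contractile ring. Mki67 and Top2a, the usual proliferation markers, separated the ends little by detection. Each was detected in 43 mitotic-end against 41 copying-end cells. Their average differences were 0.98 and 0.63, above the 90th percentile of 0.62 over all genes. Both together were found in 41 of 45 cells of the mitotic end, 38 of 45 of the DNA copying end and 54 of 92 between the ends. The list of mitotic chromatin and nuclear envelope had 1 of 12 genes past the fold at the mitotic end (8.33%), against 1.04% of all genes. It was H2afx, the histone variant phosphorylated at DNA breaks. Detection was in 27 mitotic-end cells (60.0%, 44.3 to 74.3) against 16 copying-end cells (35.6%, 21.9 to 51.2), with medians of 7.56 in the mitotic end and 0.0854 in the DNA copying end and differences of 2.25 and 2.66.

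**Figure D3:**
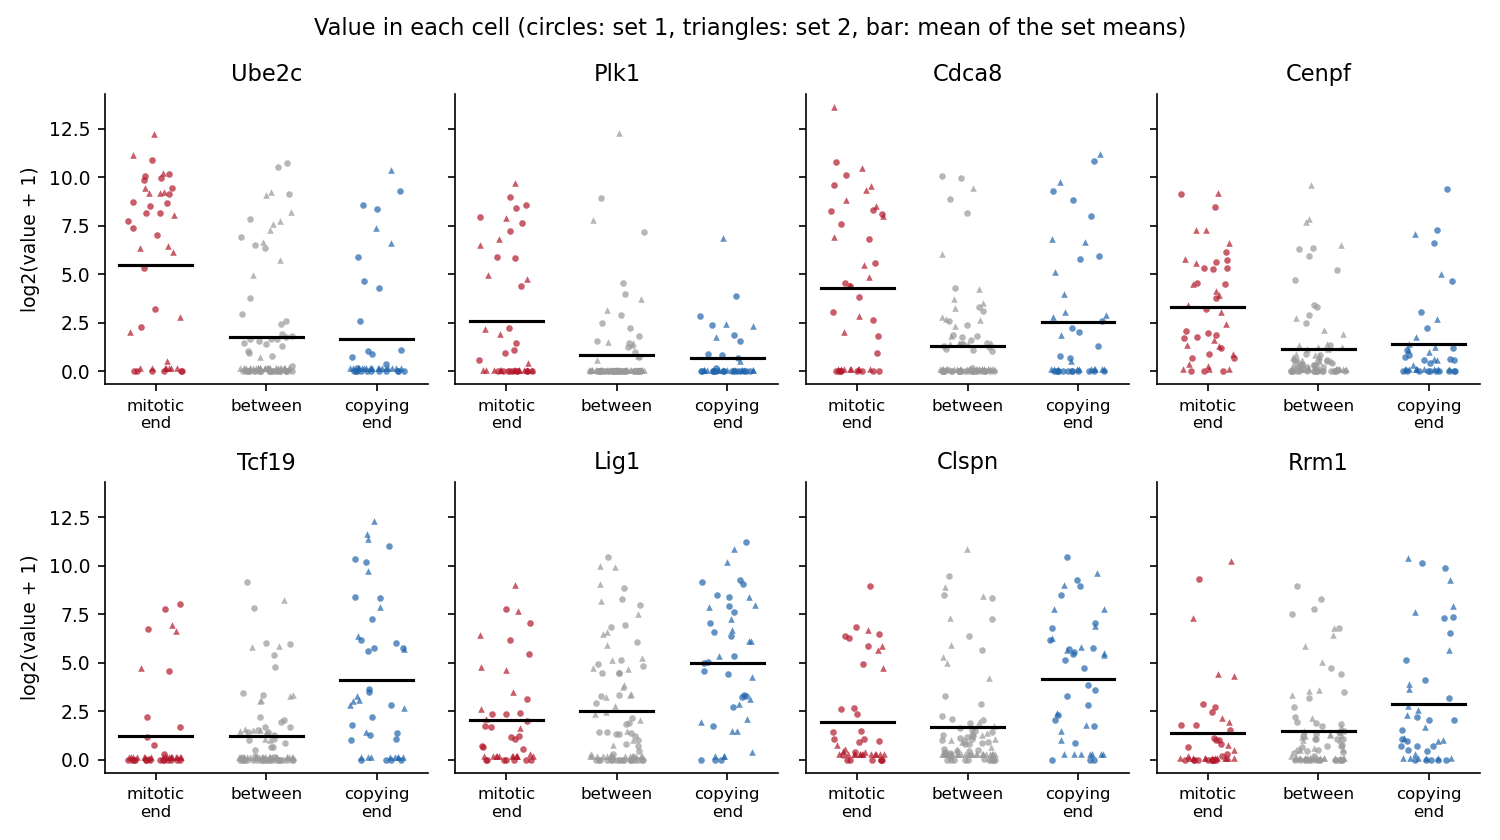
Each point is the log2(value + 1) of 1 cell in the mitotic end (red), between the ends (grey) and the DNA copying end (blue), with circles for set 1, triangles for set 2 and a bar at the mean of the set means. Ube2c, Plk1, Cdca8 and Cenpf (top) have their highest bars in the mitotic end, at 5.50, 2.58, 4.29 and 3.31, and Tcf19, Lig1, Clspn and Rrm1 (bottom) in the DNA copying end, at 4.12, 4.97, 4.16 and 2.85, while single cells overlap in every panel.

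Genes of DNA copying were lower at the mitotic end in most lists. Leaving out histones, 15 of 94 tested members (16.0%) were past the fold and higher at the DNA copying end, against 1.02% of all genes, and 1 (1.06%) was past it in the other direction. The median difference was -0.69, with 67 members below 0 in both sets and 4 above. A cell of the mitotic end had a median of 26 of the 111 copying genes in the table (range 17 to 45), a cell of the DNA copying end had 42 (16 to 66) and a cell between had 24.5 (6 to 57). By this count the mitotic end stood close to the cells between. In set 1 the medians were 31.5 at the mitotic end and 45.5 at the DNA copying end, and in set 2 they were 23 at the mitotic end and 39 at the DNA copying end. Without cell 122 the count past the fold at the DNA copying end was also 15.

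The MCM helicase, the motor that unwinds DNA at the fork, was lower at the mitotic end throughout. All 7 tested genes of that list other than Mcm5 were below 0 in both sets, with a median of -1.16. Mcm3 alone was past the fold (14.3% of the list, against 1.02% of all genes). Its median was 1.16 (0 to 351) in the mitotic end and 9.88 (0 to 4794) in the DNA copying end. The differences of Mcm3 were -1.34 and -2.75. The gene was found in 23 mitotic-end cells (51.1%, 35.8 to 66.3) against 36 copying-end cells (80.0%, 65.4 to 90.4). Mcm6 had -2.16 and -0.83 in the 2 sets with 12 mitotic-end against 26 copying-end cells, Mcm7 -1.33 with 20 mitotic-end against 28 copying-end cells, and Mcm2 -1.05 with 7 mitotic-end against 16 copying-end cells. Mcmbp, which binds the helicase, averaged -1.16 though it was detected in 25 cells of either end.

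Of 16 genes of origin licensing and firing, 4 (25.0%) were past the fold at the DNA copying end, against 1.02% of all genes. The median was -0.66. Clspn (claspin), the adaptor that carries the checkpoint signal at stalled forks, had a median of 0.346 (0 to 494) in the mitotic end and 25.8 (0 to 1408) in the DNA copying end. It was detected in 18 mitotic-end cells (40.0%, 25.7 to 55.7) against 33 copying-end cells (73.3%, 58.1 to 85.4), with differences of -2.05 and -2.36. Cdc6, which loads the helicase onto origins, was detected in 3 mitotic-end against 15 copying-end cells, with an average of -1.57. Gmnn (geminin), which blocks a second round of licensing, was detected in 9 mitotic-end against 23 copying-end cells, with -1.12 and -2.69. Orc6, of the origin recognition complex, was detected in 12 mitotic-end against 24 copying-end cells, with -1.61 and -1.17. Dbf4, the activating subunit of the Cdc7 kinase that fires origins, was the exception and the only copying gene outside histones past the fold at the mitotic end. Detection was in 22 mitotic-end against 13 copying-end cells, with differences of 1.09 and 1.76, while Cdc7 itself averaged -0.66 with 19 mitotic-end against 20 copying-end cells.

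At the replication fork 4 of 26 genes (15.4%) were past the fold, all higher at the DNA copying end, against 1.02% of all genes. The median was -0.54. Lig1, the ligase that joins the pieces of the lagging strand, had the largest average difference of the copying lists. Its median was 1.08 (0 to 519) in the mitotic end and 31.5 (0 to 2417) in the DNA copying end. The gene was found in 23 mitotic-end cells (51.1%, 35.8 to 66.3) against 38 copying-end cells (84.4%, 70.5 to 93.5), with differences of -3.44 and -2.40 and an SD over cells of 2.34 and 2.80 in the mitotic end and 3.20 and 3.45 in the DNA copying end. Prim1, the primase subunit that starts each new strand, was detected in 17 mitotic-end against 29 copying-end cells with -2.37 and -1.24. Rpa1, which coats single strands, was detected in 16 mitotic-end against 30 copying-end cells with -1.97 and -1.38, and Wdhd1, which ties the polymerase to the helicase, in 16 mitotic-end against 30 copying-end cells with -1.34 and -1.53. Pcna, the sliding clamp, was detected in 15 mitotic-end against 28 copying-end cells with an average of -1.18 and missed the fold in set 1 at -0.79. Pold1, of polymerase delta, was the highest of the list at 0.62, with 25 mitotic-end against 21 copying-end cells.

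Chromatin copying genes rebuild nucleosomes and methylation behind the fork. All 15 had an average difference below 0, with a median of -0.90. Past the fold were Atad2, a bromodomain ATPase of new chromatin, with 15 mitotic-end against 28 copying-end cells and differences of -1.97 and -1.73, and Ssrp1, of the histone chaperone FACT, with 32 mitotic-end against 37 copying-end cells and -1.28 and -1.91. Hells, a remodeller needed for DNA methylation, had 23 mitotic-end against 32 copying-end cells with -1.60 and -1.35, and Chaf1a, of the chromatin assembly factor, had 16 mitotic-end against 21 copying-end cells with -1.04 and -1.16. Dnmt1, the methyltransferase that Uhrf1 recruits, averaged -1.09 with 25 mitotic-end against 36 copying-end cells and reached -0.96 in set 2, short of the fold. In nucleotide synthesis 1 of 18 genes (5.56%) was past the fold, higher at the DNA copying end, against 1.02% of all genes. It was Rrm1, the large subunit that pairs with Rrm2. Rrm1 was detected in 15 mitotic-end against 26 copying-end cells with differences of -1.63 and -1.38. Tyms, which makes thymidylate, was detected in 7 cells of either end with an average of -0.13. In fork repair the median was -0.61, and 10 of 12 genes were below 0 in both sets. Brca1, of repair by homologous recombination, was detected in 1 mitotic-end against 12 copying-end cells with an average of -0.72.

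Histone genes did not follow the other copying genes. Replication-dependent histones supply new nucleosomes and their messages are known to lack a poly(A) tail. Of 26 tested, 1 (3.85%) was past the fold, Hist1h2an, and it was higher at the mitotic end, against 1.04% of all genes. Detection was in 15 mitotic-end cells (33.3%, 20.0 to 49.0) against 3 copying-end cells (6.67%, 1.40 to 18.3), with differences of 1.58 in both sets. The list median was 0.41, with 15 genes above 0 in both sets and 1 below. Hist1h4h was lowest, at -1.13 with 7 mitotic-end against 13 copying-end cells. A cell of the mitotic end had a median of 6 of the 52 histone genes in the table (0 to 28), and a cell of the DNA copying end had 7 (0 to 27), but the sets differed. In set 1 the medians were 14.5 at the mitotic end and 11.5 at the DNA copying end, and in set 2 they were 3 at the mitotic end and 4 at the DNA copying end. Near-identical copies of these genes can share reads, so values of single histone genes are uncertain.

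**Figure D4:**
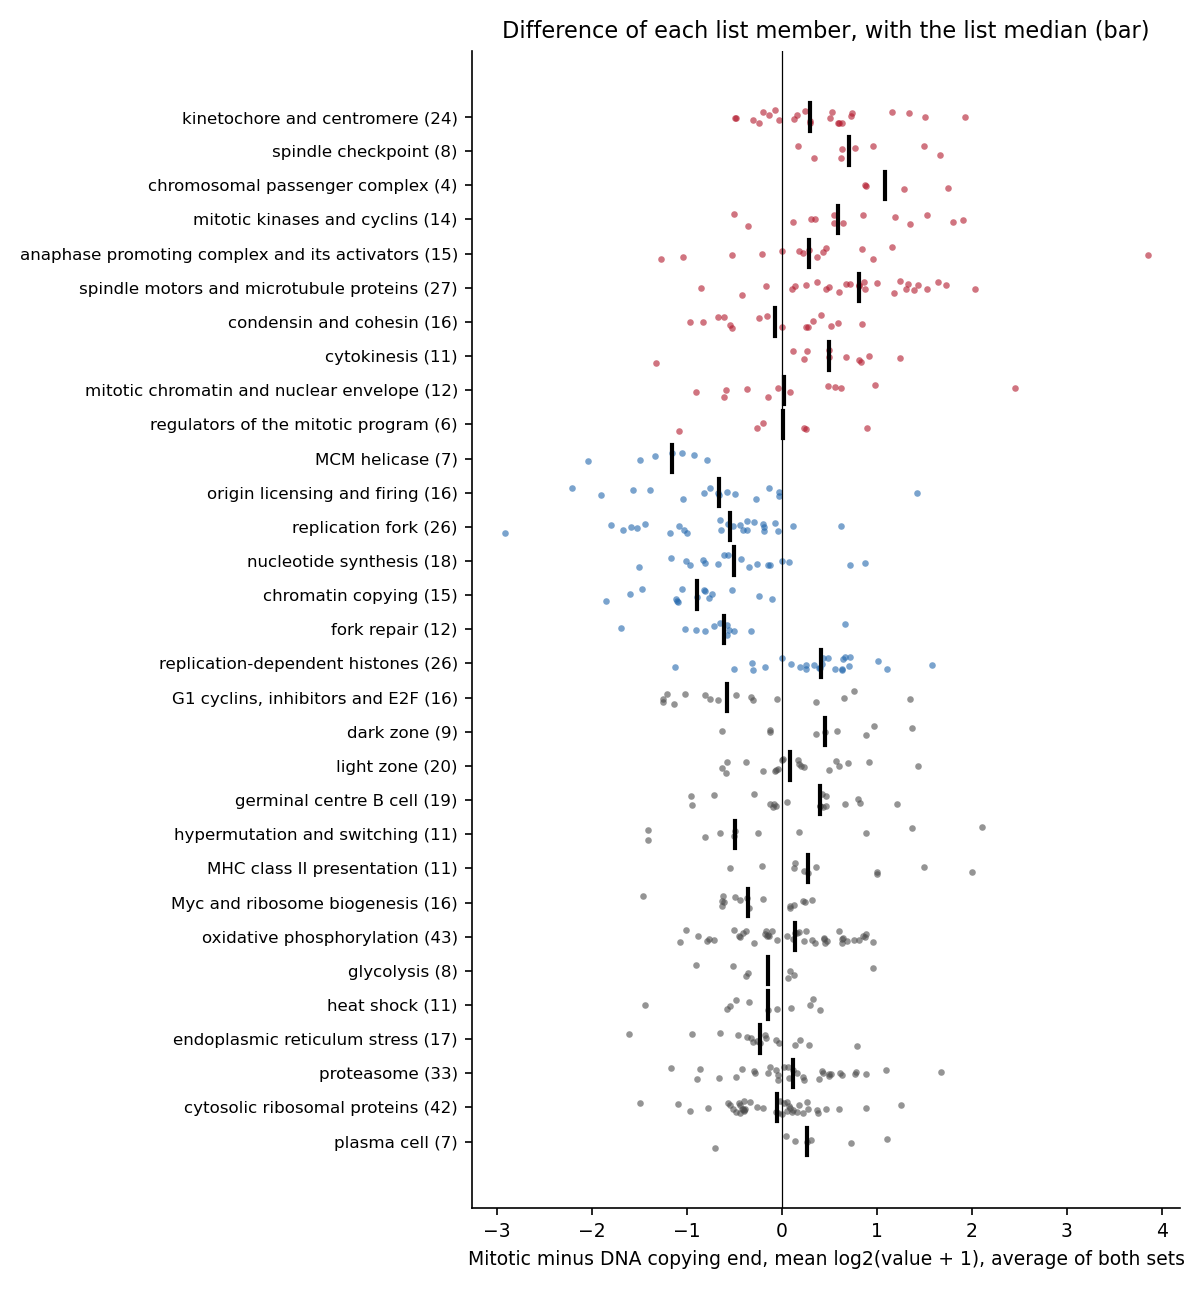
Each point is the average difference of 1 list member, mitotic minus DNA copying end in mean log2(value + 1), and each bar is the median of the list, with mitosis lists in red, copying lists in blue, other lists in grey and the number tested in brackets. The bars lie at 0.81 for spindle motors and 1.09 for the passenger complex, at -1.16 for the MCM helicase and -0.90 for chromatin copying, and within 0.6 of 0 for the lists in grey, whose points spread to both sides.

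The largest differences outside these lists were named by the same rule, the 12 genes at each end with the largest value in their smaller set. At the mitotic end they added C330027C09Rik, now Cip2a, an inhibitor of the phosphatase PP2A, which was detected in 27 mitotic-end cells (60.0%, 44.3 to 74.3) against 10 copying-end cells (22.2%, 11.2 to 37.1) with differences of 2.35 and 2.01. Also there were 2810474O19Rik, now Resf1, a silencer of retroelements, with 34 mitotic-end against 18 copying-end cells, Fis1, of mitochondrial fission, with 31 mitotic-end against 22 copying-end cells, and Tmem59, a membrane protein of the endosomal and Golgi system, with 15 mitotic-end against 3 copying-end cells. Resf1 and Fis1 averaged 3.46 and 3.77 on the log2 scale between the ends, closer to the 3.67 and 4.19 of the mitotic end than to the 1.81 and 2.49 of the DNA copying end. For Ube2c the cells between stood with the DNA copying end instead.

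At the DNA copying end Tcf19, a PHD finger protein known as a gene of S phase entry, had the largest difference among genes higher there. Its median was 0.110 (0 to 259) in the mitotic end, which is the lowest value of Tcf19 in set 2, and 7.18 (0 to 5176) in the DNA copying end. It was detected in 10 mitotic-end cells (22.2%, 11.2 to 37.1) against 32 copying-end cells (71.1%, 55.7 to 83.6), with -2.93 in both sets and an SD over cells of 2.59 and 2.17 in the mitotic end and 3.60 and 4.30 in the DNA copying end. Lig1 and Tcf19 were detected together in 6 cells of the mitotic end, 29 of the DNA copying end and 19 of the 92 between. Cdca7, the partner of Hells in chromatin remodelling, was detected in 10 mitotic-end against 27 copying-end cells with -2.03 and -1.65. 2810417H13Rik (Pclaf), which binds Pcna, was detected in 34 mitotic-end against 42 copying-end cells, with medians of 10.8 in the mitotic end and 55.2 in the DNA copying end and differences of -1.53 and -1.57. Its mean between the ends, 1.84 on the log2 scale, lay below both the 3.69 of the mitotic end and the 5.25 of the DNA copying end.

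The other names at the DNA copying end were not all genes of replication. Wdr76, a WD repeat protein, was detected in 9 mitotic-end against 26 copying-end cells, and Rif1, which times origin firing and guards DNA ends, in 22 mitotic-end against 31 copying-end cells. Id3, an inhibitor of E protein transcription factors in B cells, was detected in 13 mitotic-end cells (28.9%, 16.4 to 44.3) against 24 copying-end cells (53.3%, 37.9 to 68.3) with differences of -2.97 and -1.48. Sf3a3, a splicing factor, was detected in 15 mitotic-end against 20 copying-end cells, and Exosc5, of the RNA exosome, in 9 mitotic-end against 17 copying-end cells. For all 24 genes the ranges over cells overlapped between the ends.

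For genes past the fold, the mean of the cells between the ends mostly stood nearer to the lower end. These cells are mixed, since cells low in both kinds of gene and cells high in both can have a middle score. Cell 24 had means of 6.13 for the mitosis genes and 5.80 for the copying genes, while cell 13 had 0.01 and 0.69. For the 56 genes higher at the mitotic end, the mean between the ends lay between those of the 2 ends for 38, below both for 17 and above both for 1. For the 55 genes higher at the DNA copying end it lay between for 37 and below both for 18. The between mean sat a median of 18.9% of the way up from the lower end for genes of the first kind and 12.2% for genes of the second. Mki67 and Top2a were both undetected in 9 of these 92 cells, in 0 of the 45 cells of the mitotic end and in 1 of the 45 of the DNA copying end.

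Genes of the G1 phase and of E2F control leaned to the DNA copying end. Of 16 tested, 1 (6.25%) was past the fold, higher at the DNA copying end, against 1.02% of all genes. It was E2f2, an activator of S phase genes, with 19 mitotic-end against 25 copying-end cells and differences of -1.19 and -1.22. The list median was -0.58, with 11 genes below 0 in both sets. Ccne2 (cyclin E2), which starts S phase with Cdk2, averaged -1.26 with 8 mitotic-end against 20 copying-end cells, and Cdk2 -1.25 with 24 mitotic-end against 33 copying-end cells. Cdkn2d, an inhibitor of cyclin D kinases, was the highest of the list at 1.34 with 17 mitotic-end against 11 copying-end cells. E2f8, a repressor of E2F targets on the list of mitotic regulators, averaged -1.08 with 4 mitotic-end against 15 copying-end cells.

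Of 9 dark zone genes 1 (11.1%) was past the fold, higher at the mitotic end, against 1.04% of all genes, and the list median was 0.45. Cxcr4, the receptor that draws B cells into the dark zone, averaged -0.12 with 24 mitotic-end against 20 copying-end cells. Of 20 light zone genes 1 (5.00%) was past the fold, with a list median of 0.09. Nfkbia, the NF-kB inhibitor that NF-kB induces, was past the fold at the mitotic end with 35 mitotic-end against 29 copying-end cells and 1.11 and 1.76, and Cd83, a light zone surface marker, averaged 0.17 with 21 mitotic-end against 23 copying-end cells. Myc was detected in 9 mitotic-end against 11 copying-end cells with differences of -1.22 and -0.05.

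Of 19 germinal centre B cell genes 1 (5.26%) was past the fold, higher at the mitotic end, against 1.04% of all genes. Fas, whose protein was part of the gate, was detected in 28 mitotic-end against 19 copying-end cells with differences of 1.42 and 1.01. Bcl6, the repressor that holds the germinal centre state, was detected in 28 cells of either end, with an average of 0.05. S1pr2, the receptor that keeps cells in the follicle centre, was detected in 16 mitotic-end against 27 copying-end cells and averaged -0.95 without passing the fold. In hypermutation and class switching 2 of 11 genes (18.2%) were past the fold at the mitotic end, Neil1 among them, and 2 (18.2%) at the DNA copying end, Xrcc6 and Rif1. Over all genes the shares were 1.04% at the mitotic end and 1.02% at the DNA copying end. The list median was -0.49. Neil1, a base excision glycosylase, was detected in 39 mitotic-end against 31 copying-end cells with 1.23 and 3.00, and Xrcc6 (Ku70), of end joining, in 12 mitotic-end against 19 copying-end cells with -1.17 and -1.64.

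Of 11 MHC class II genes 1 (9.09%) was past the fold, higher at the mitotic end, against 1.04% of all genes. It was H2-Eb1, a beta chain of the presenting molecule. Its lowest, median and highest values were 1.11, 149.9 and 2664 in the mitotic end, against 0, 14.4 and 2580 in the DNA copying end. The gene was found in 45 of 45 mitotic-end cells (100%, 92.1 to 100) against 36 of 45 copying-end cells (80.0%, 65.4 to 90.4), with differences of 1.39 and 2.61. The chains H2-Ab1 and H2-Aa did not share this direction, at -0.21 and -0.55 on average. The list median over 11 genes was 0.27.

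Lists of growth and housekeeping had 0 or 1 gene past the fold, where 2.06% of all genes were past it in either direction. Of 43 genes of oxidative phosphorylation and 8 of glycolysis none was past it, with medians of 0.14 and -0.15. Of 42 ribosomal protein genes 1 (2.38%) was past it at the DNA copying end, Rpl14 (30 mitotic-end against 37 copying-end cells), and the median was -0.05. Ribosome biogenesis had a median of -0.36 over 16 genes, with 1 (6.25%), Nolc1, a nucleolar chaperone, past the fold at 15 mitotic-end against 24 copying-end cells and -1.83 and -1.10. The chaperones Hsp90aa1 (31 mitotic-end against 41 copying-end cells) and Hspa5 (27 mitotic-end against 33 copying-end cells) were each the only gene of their list past the fold, of 11 heat shock genes (9.09%) and 17 endoplasmic reticulum stress genes (5.88%), with average differences of -1.44 and -1.61. Psmb10, a subunit of the immunoproteasome, was the only one of 33 proteasome genes (3.03%) past it, at the mitotic end, with 26 mitotic-end against 23 copying-end cells and 1.68.

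Lck, a kinase known from T cells that is on the T cell marker list, was detected in 26 mitotic-end against 19 copying-end cells with differences of 0.45 in set 1 and 3.14 in set 2. The summed value of the 5 T cell genes in the table ranged from 0.0331 to 3565 in the mitotic end and from 0.0331 to 2836 in the DNA copying end, and 1 cell of the mitotic end and 2 of the DNA copying end had 2 or more of the genes. Of 7 tested plasma cell genes none was past the fold, with a median of 0.26.

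The heavy chain class in use was read from the constant genes. A class was read where 1 constant gene held over 50% of the heavy chain signal and the signal summed to at least 10. Ighm was dominant in 26 of 42 cells with signal (61.9%, 45.6 to 76.4) at the mitotic end, in 34 of 44 (77.3%, 62.2 to 88.5) at the DNA copying end and in 63 of 83 (75.9%, 65.3 to 84.6) between. A switched class was dominant in 16 cells (38.1%, 23.6 to 54.4) at the mitotic end, 7 cells (15.9%, 6.64 to 30.1) at the DNA copying end and 18 cells (21.7%, 13.4 to 32.1) between. The intervals of the 2 ends overlap, which does not show the shares to be equal, and the difference was not tested.

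Promoter letters differed between the lists, whatever the cells showed. In the RefSeq windows from 250 bases before to 50 after the start, with the 3 score genes of each kind counted in, 131 of 155 mitosis list genes matched and gave 153 promoters, and 97 of 114 copying list genes without histones gave 116. The homology region was present in 79 of the mitosis promoters (51.6%) and 19 of the copying promoters (16.4%), against 19.2% of all 32851 promoters. The E2F motif was present in 16 mitosis promoters (10.5%) and 30 copying promoters (25.9%), against 2.26% of all. A CCAAT box was present in 66.0% of mitosis promoters and 51.7% of copying promoters, against 37.4% of all. A homology region together with a CCAAT box was present in 40.5% of mitosis promoters and 6.90% of copying promoters, against 7.52% of all. These shares belong to the lists, which were drawn up from known roles, with earlier results of these data known.

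**Figure D5:**
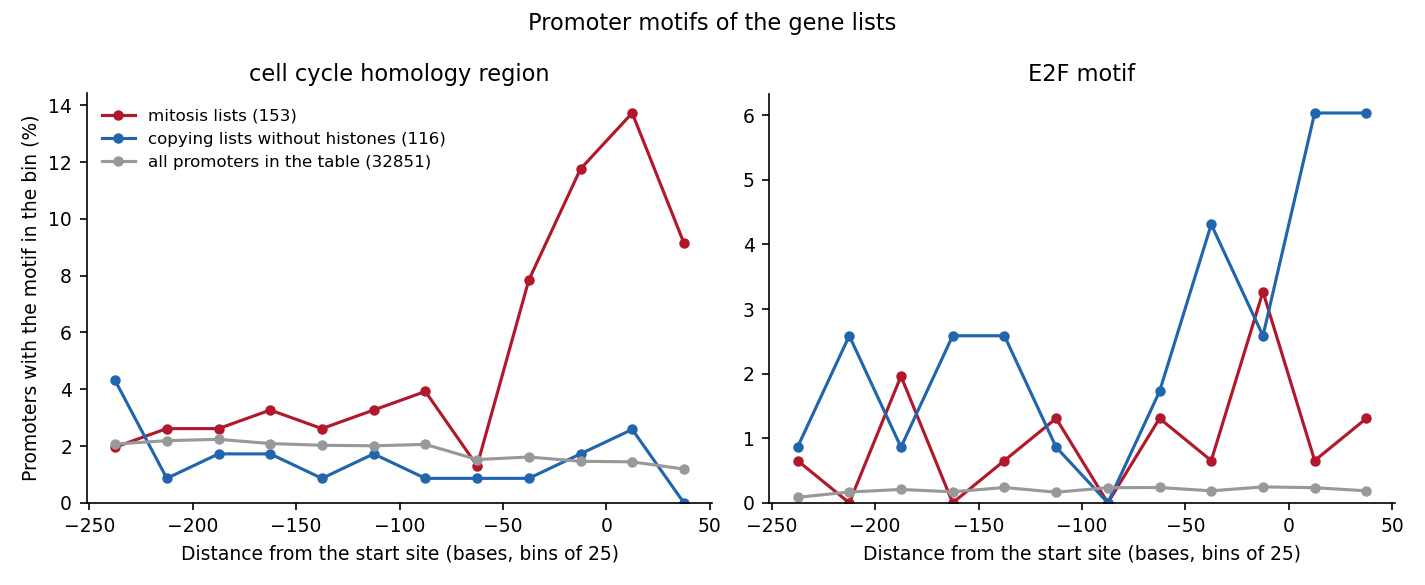
Share of promoters with the cell cycle homology region (left) and the E2F motif (right) in bins of 25 bases along the distance from the start, for 153 promoters of the mitosis lists (red), 116 of the copying lists without histones (blue) and all 32851 promoters (grey). The homology region reaches 13.7% of mitosis promoters in the 25 bases from the start onwards, against 1.44% of all promoters. The E2F motif stays under 7% in every bin. In the 25 bases from the start onwards it is present in 6.03% of copying promoters, against 0.234% of all promoters.

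The same letters were then counted in the genes past the fold. Of 53 promoters of genes higher at the mitotic end, 35.8% held the homology region and 3.77% the E2F motif. Of 56 promoters of genes higher at the DNA copying end, 23.2% held the homology region and 25.0% the E2F motif. Over the promoters of all genes tested the shares were 15.4% and 5.17%. For genes past the fold that are in no list, the homology region was present in 5 of 34 promoters (14.7%) at the mitotic end and 8 of 34 (23.5%) at the DNA copying end. The E2F motif was present in 0 of 34 of these promoters at the mitotic end and 5 of 34 (14.7%) at the DNA copying end. Outside the lists the homology region was thus no more frequent at the mitotic end than over all genes tested. A match describes letters in a window and does not show that a factor binds there.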

How the data were processed

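Full-length cDNA libraries of 182 single cells were sequenced, and the deposited table gives 1 normalized signal per gene and cell, which is not a count. The authors' tools were TopHat2 2.0, Cufflinks 2.2 and Cuffdiff on mm10, per the submitters' processing notes. How the signal was normalized is not given in the sources used here. Its values follow a shared ladder by rank and a gene-wise floor that differs between cells 1 to 96 (set 1) and 97 to 182 (set 2), so differences in mean log2 values were taken within a set and averaged. Numbers of cells, ranges and medians over cells were pooled over both sets unless a set is named. A pooled median below 1 can therefore be the floor of the gene in 1 of the sets. The floor was 1 or more for 11 genes in set 1 and 32 in set 2, so that these pass detection throughout the set. Of 17034 symbols, 20 had been turned into dates and were left out. No doublet caller was run, and the protocol scored captures by eye.

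The 6 genes of the score were left out of the 5394 genes tested. Values were taken as log2(value + 1). The text names the 6 score genes, the 12 genes at each end with the largest difference in their smaller set, any gene of the mitosis and copying lists, and up to 6 genes of each other list with the largest differences, while Bcl6, Cxcr4, Cd83, Myc, and H2-Ab1 are named in addition, as known markers, with their values seen. A few results that this rule covers are not reported here. The cells, lists and rules were chosen with earlier results of these data known. Promoters came from RefSeq. The alternatives were other pseudocounts, filters and detection thresholds, a term for the number of genes above the floor, centring of each cell and leaving out cell 122. The computation was checked on resampled cells with added shifts. It returns such shifts by construction, so the check says nothing about the differences reported. Computation used Python 3.11.15 with numpy 2.4.6, pandas 2.3.3 and scipy 1.17.1.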

Additional observations from a re-analysis of the deposited data

How the results depend on the processing

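The counts past the fold depended on the pseudocount, since many values lie near 0. With a pseudocount of 0.1 there were 161 genes higher at the mitotic end and 164 at the DNA copying end, with 28 mitosis list genes and 26 copying list genes among them and a copying list median of -1.11. With a pseudocount of 10 there were 6 and 6 genes, with 2 mitosis and 2 copying list genes and medians of 0.21 and -0.36. No direction of a gene past the fold reversed under the alternatives tried. Of the 24 genes with the largest differences, 24 stayed past the fold under each other alternative on differences, or 20 of the 20 tested where detection in 25% of cells was required, and 9 with a pseudocount of 10. With detection at 5 or more, or above the floor, the share of cells kept its direction for these and the 6 score genes. The size of the difference in shares moved by more than a set ratio for 6 of these 30 genes at 5 or more, Uhrf1 and Cdca7 among them. Above the floor it did so for 7, Cenpe, Mcm5 and Clspn among them.

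A linear term for the number of genes above the floor gave 58 and 56 genes, which shared 49 and 50 with those reported. Centring each cell on its mean gave 53 and 56. Without cell 122 there were 63 and 53, which shared 54 and 51, and 19 mitosis list genes were past the fold. Depth is unknown, so a gene undetected in a cell is not shown to be absent from it. The sets may be capture runs or other batches, and the labels do not say. No paired analysis was possible because there is 1 group of cells without replicate numbers that pair them.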
